A study of Mus musculus with 6 samples.

Results

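The interferon-induced proteins with tetratricopeptide repeats (IFIT) and the interferon-induced transmembrane proteins (IFITM) are 2 families of antiviral effectors. Their genes were chosen by name, together with Bst2 and Rsad2, and 10 gene names were found among the 56884 gene identifiers of each table: Ifit1, Ifit2, Ifit3, Ifit3b, Ifitm1, Ifitm2, Ifitm3, Ifitm10, Bst2 and Rsad2. Levels are given in TPM, the share of a library's transcripts that came from a gene, corrected for gene length. A gene was tested when it had at least 0.5 TPM in at least 3 of the 6 libraries, which held for 8 of the 10 genes and for 15426 genes in all.

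RNA was sequenced from a mouse stromal vascular fraction (SVF) cell line of subcutaneous white adipose tissue at day 2 of beige adipocyte differentiation. One group overexpressed PPARγ2 K382Q, in which a glutamine at residue 382 mimics acetylated lysine, and the other overexpressed PPARγ2 K382R, in which an arginine mimics the deacetylated state. Both mutants were delivered by a retroviral vector, both lines were selected with puromycin, and both received the same induction medium with 0.5 µM rosiglitazone, 1 nM T3, 5 µg/mL insulin, 2 µg/mL dexamethasone, 125 µM indomethacin and 500 µM isobutylmethylxanthine. Each group had 3 libraries labelled as biological replicates. Nothing states that they came from separate transductions, so p-values measure the spread between these samples, and no untransduced or wild-type PPARγ2 culture was among them. A lower level in K382Q therefore cannot be told apart from a higher level in K382R.

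As background, cells that sense interferon pass the signal from a surface receptor through JAK kinases to a transcription factor complex that holds STAT2 and IRF9 and binds the interferon-stimulated response element (ISRE) in the promoters of responsive genes. IFIT proteins sit in the cytosol, where IFIT1 binds viral RNA whose cap lacks a methyl mark and blocks its translation. IFITM proteins sit in the plasma and endosomal membranes and hinder the fusion of viral envelopes, Bst2 (tetherin) holds budding virions on the cell surface, and Rsad2 (viperin) makes a modified nucleotide that ends viral RNA chains.

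The response element is shown first because it is the sequence that many interferon-responsive promoters have in common. The core letters GAAANNGAA were searched on both strands, overlapping matches included, in the 250 bases before the start that the tables give for each gene. A match was present for 6 of the 10 genes and in 7.15% of all 21654 promoters searched. Ifit1, Ifit3 and Ifit3b had 3 matches each, Bst2 had 2, and Ifitm2 and Rsad2 had 1 each, while Ifit2, Ifitm1, Ifitm3 and Ifitm10 had none in this window. The stretches from 200 to 51 bases before the start (120 to 51 for Ifit1) are printed 5′ to 3′ on the strand of the gene (GRCm39) for the 5 genes whose matches all lie there, with the matches in capitals. In all but Bst2 the core lies on the strand opposite to the gene and is printed as its reverse complement.
Ifit1 (chr19:34618151-34618220, plus strand): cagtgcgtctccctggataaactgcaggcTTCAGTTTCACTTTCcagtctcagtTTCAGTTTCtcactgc
Ifit3 (chr19:34560731-34560880, plus strand): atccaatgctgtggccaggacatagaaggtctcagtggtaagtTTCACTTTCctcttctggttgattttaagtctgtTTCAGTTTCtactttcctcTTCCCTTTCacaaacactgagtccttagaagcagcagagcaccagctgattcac
Ifit3b (chr19:34585170-34585319, plus strand): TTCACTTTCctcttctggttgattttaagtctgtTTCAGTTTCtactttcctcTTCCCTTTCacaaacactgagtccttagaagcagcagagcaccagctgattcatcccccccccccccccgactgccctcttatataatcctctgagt
Bst2 (chr8:71990151-71990300, minus strand): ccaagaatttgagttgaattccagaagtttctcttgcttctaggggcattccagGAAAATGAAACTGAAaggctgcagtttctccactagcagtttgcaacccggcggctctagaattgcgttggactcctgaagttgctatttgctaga
Rsad2 (chr12:26506502-26506651, minus strand): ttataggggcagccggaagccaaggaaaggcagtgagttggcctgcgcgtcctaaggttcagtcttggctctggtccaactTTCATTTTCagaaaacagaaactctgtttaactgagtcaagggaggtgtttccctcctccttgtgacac

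The promoters of Ifit3 and Ifit3b were near copies of each other, with 96.2% identity over 213 aligned columns, and carry 3 matches each, which span 157 to 96 bases before the start of Ifit3 and 200 to 139 before that of Ifit3b. In Ifit1 the first run of capitals is an overlapping pair, and so is the run in Bst2. The Bst2 pair also overlaps a match to TTCNNNGAA, the gamma-activated site of interferon gamma signalling, which lies 152 to 144 bases before the start. That site was found for 2 of the 10 genes, Bst2 and Ifit2, and in 7.23% of all promoters. The TATA box letters TATAAA were found for 2 genes (11.6% of all promoters), both on the strand opposite to the gene. They lay 149 to 144 bases before the start of Ifitm2 and 10 to 5 before that of Rsad2. A PPAR response element written as a pair of AGGTCA copies 1 base apart was found for none (0.0416%). A match is a run of letters and not a measured site, and the count for the ISRE core moved to 5 of 10 with the canonical starts of GENCODE M39 (7.54% of promoters) and to 7 of 10, with Ifitm3 added, in RefSeq windows of 300 bases from GRCm38.p6 (9.76%).

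Of the 8 genes tested, 8 were lower in K382Q than in K382R by limma on log2(TPM + 0.5) at an adjusted p under 0.05, and 7 of them passed the stricter call of over 2-fold. Among all genes tested, 36.9% were lower at the same adjusted p and 2.61% also passed 2-fold. All 3 K382Q libraries lay below all 3 K382R libraries for the 8 genes, as they did for 42.8% of all genes tested. Log2 fold changes (K382Q against K382R) of the 8 genes ran from −2.05 to −0.15 with a median of −1.16, against a median of −0.14 over all genes tested. After median-ratio scaling, which moves the median over all genes tested to 0.0039, 7 of the 8 genes were lower (20.4% of all genes) and 4 passed 2-fold (1.93%), namely the genes Ifit1, Ifit3, Ifit3b and Rsad2. In bulk RNA, fewer cells that express a gene and less RNA per cell cannot be told apart.

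**Figure D1:**
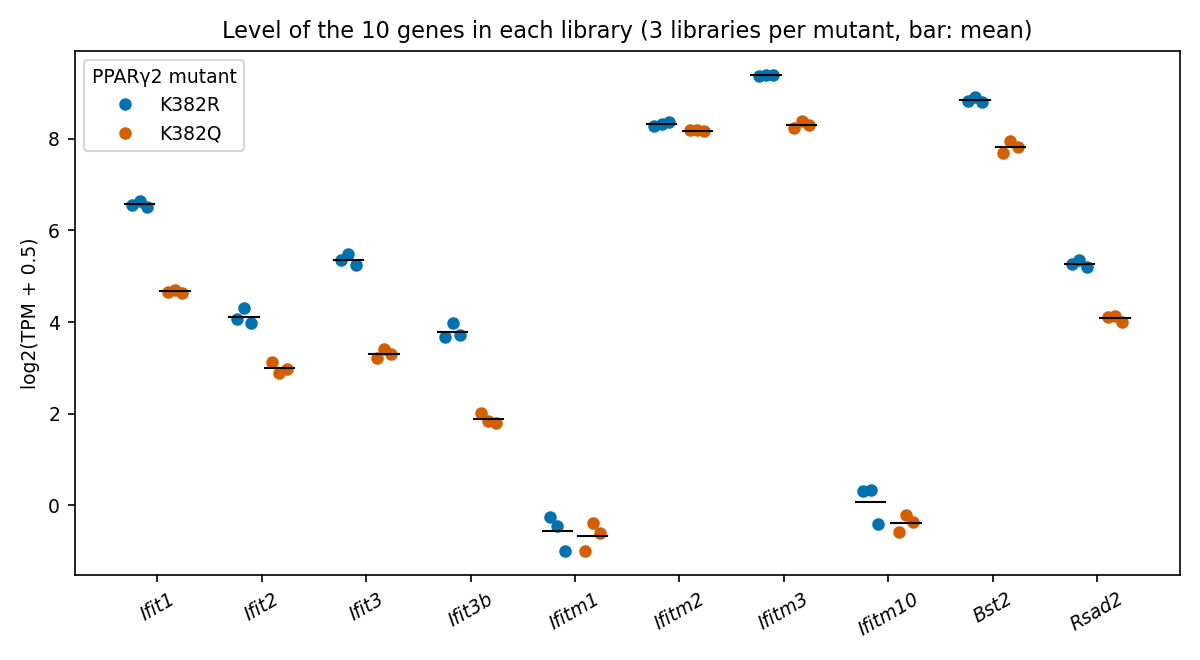
Levels of the 10 genes in each library, as log2(TPM + 0.5) on the vertical axis, with 3 points per mutant and a bar at the mean. The K382Q points lie below the K382R points for 8 genes, narrowly for Ifitm2, and the groups overlap for Ifitm1 and Ifitm10 near the bottom of the axis.

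The 4 IFIT genes lie in a row on chromosome 19 between positions 34528094 and 34627409 of GRCm39, a span of 99.3 kb, all on the plus strand in the order Ifit2, Ifit3, Ifit3b and Ifit1. Ifit1 encodes the family member that recognises foreign RNA caps directly. In the K382R libraries Ifit1 stood at 93.3, 99.8 and 90.9 TPM, and in the K382Q libraries at 24.8, 25.7 and 24.3 TPM. The lowest K382R library was thus far above the highest K382Q library. The means were 94.6 ± 4.60 (SD, n = 3) and 24.9 ± 0.681 TPM (SD, n = 3), and the level in K382Q was 26.3% of that in K382R. The log2 fold change was −1.90 (SE 0.0461) with an adjusted p of 2.77e-07 in limma, the 48th largest fall among 15426 genes.

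Ifit3 encodes a family member whose human counterpart binds IFIT1 and steadies it on RNA. Its levels were 40.2, 44.3 and 37.5 TPM in K382R and 8.75, 10.1 and 9.41 TPM in K382Q. The groups were well apart, and the log2 fold change of −2.05 (SE 0.0773, adjusted p = 1.37e-06 in limma) was the lowest among the 8 genes. Ifit3b, its near copy, read 12.2, 15.3 and 12.6 TPM in K382R against 3.56, 3.10 and 2.98 TPM in K382Q. Its log2 fold change was −1.89 (SE 0.111, adjusted p = 9.22e-06 in limma).

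The coding sequences of Ifit3 and Ifit3b are 99.1% identical, and 15.3% of the 150-base windows along the canonical Ifit3 transcript also occur in Ifit3b. How the authors' counting divided such reads between the pair is uncertain, so the level of each copy is less sure than their sum. The share of Ifit3b in the summed TPM of the pair was 24.7 ± 1.25% in K382R (SD, n = 3) and 25.5 ± 2.96% in K382Q (SD, n = 3), with overlapping libraries. The log2 ratio of Ifit3 to Ifit3b differed by −0.16 between groups (K382Q minus K382R, two-sided exact permutation p = 0.5).

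Ifit2 encodes a family member linked to inhibition of translation and to cell death. It stood at 16.3, 19.2 and 15.2 TPM in K382R and at 8.29, 6.87 and 7.38 TPM in K382Q, again without overlap. The log2 fold change was −1.12 (SE 0.103, adjusted p = 8.78e-05 in limma). It was inside 2-fold in 3 of 17 alternatives: −0.974 with FPKM, −0.972 after median-ratio scaling and −0.966 with quantile normalization. The main value of −1.12 was nearer 0 than those of the other 3 genes of the row. The log2 ratio of Ifit1 to Ifit2 in each library was 1.67 ± 0.152 in K382Q and 2.45 ± 0.0975 in K382R (SD, n = 3 each), without overlap. Its two-sided exact permutation p of 0.1 is the smallest that 3 libraries against 3 can give over 20 regroupings, and it was 0.133 after adjustment over the 4 ratios tested.

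Summed over the 4 IFIT genes, the level was 166 ± 11.6 TPM in K382R and 45.1 ± 0.852 TPM in K382Q (SD, n = 3 each). Ifit1 made up 57.2% of that sum in K382R and 55.3% in K382Q, so the larger part came from 1 gene in both groups.

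**Figure D2:**
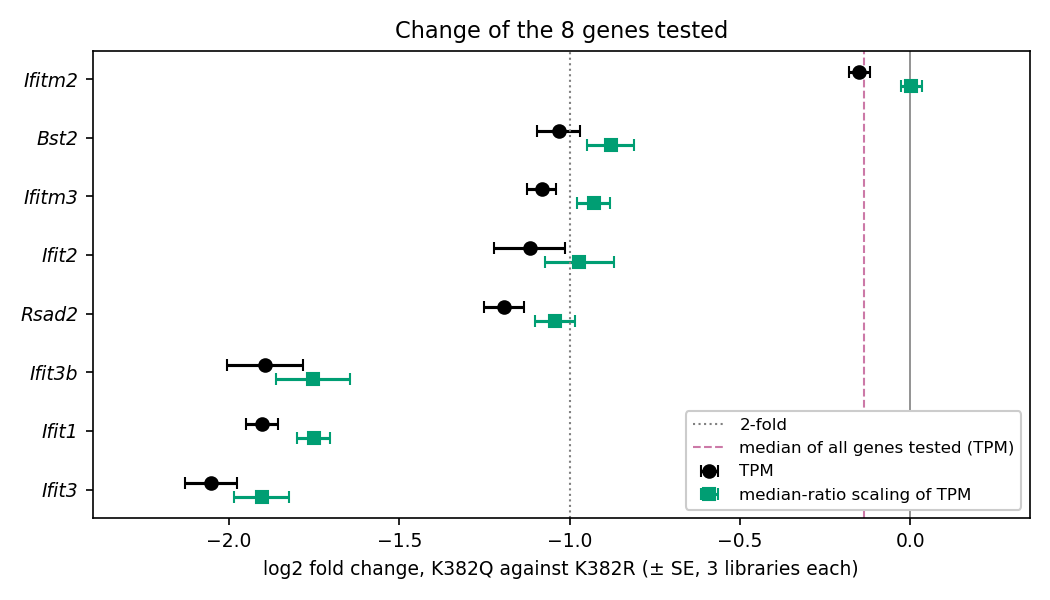
Log2 fold change of the 8 genes tested, K382Q against K382R, with SE over 3 libraries each, from TPM (black circles) and after median-ratio scaling (green squares). The IFIT genes other than Ifit2 lie at −1.75 or lower under both scalings, Ifitm2 lies at the median of all genes (dashed), and the dotted line marks 2-fold.

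The IFITM genes gave an uneven picture. Ifitm3 (chr7:140589499-140590683, minus strand) encodes the member that restricts viruses entering through endosomes, and it was the most abundant of the 10 genes in both groups. It stood at 662, 675 and 677 TPM in K382R and at 299, 336 and 316 TPM in K382Q. No library of either group came near the other group, and the log2 fold change was −1.08 (SE 0.0429, adjusted p = 1.79e-06 in limma). It was inside 2-fold in 2 of 17 alternatives, at −0.93 after median-ratio scaling and −0.997 with FPKM.

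Ifitm2 (chr7:140534750-140535900) encodes a close relative that sits 53.6 kb away on the same strand of chromosome 7. It stood at 312, 319 and 331 TPM in K382R and at 290.3, 290.0 and 287 TPM in K382Q. The groups did not overlap, yet the log2 fold change was only −0.15 (SE 0.0302, adjusted p = 0.0045 in limma), within 0.015 of the median gene. With median-ratio scaling it was 0.0028 (adjusted p = 0.953), so the lower level of Ifitm2 did not hold under that scaling. Ifitm2 overlaps the predicted gene Gm45717 on the same strand, and 14.3% of its 150-base windows also occur there, but Gm45717 stood at only 4.35 ± 0.890 TPM in K382Q and 5.77 ± 2.05 TPM in K382R (SD, n = 3 each).

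The ratio of Ifitm3 to Ifitm2, which no linear scaling of a library can move, was 2.12, 2.12 and 2.04 in the K382R libraries and 1.03, 1.16 and 1.099 in the K382Q libraries. The pair was thus at nearly equal level in K382Q and well apart in K382R. The log2 ratio differed by −0.93 (K382Q minus K382R), with a two-sided exact permutation p of 0.1, the smallest possible, and an adjusted value of 0.133 over the 4 ratios.

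Ifitm1 encodes the plasma membrane member of the family, and it was barely detected. Its levels were 0.338, 0.235 and 0 TPM in K382R and 0, 0.261 and 0.155 TPM in K382Q. Ifitm10, a divergent member of unknown role here that lies 1.29 Mb from Ifitm3, stood at 0.738, 0.761 and 0.254 TPM in K382R and at 0.163, 0.367 and 0.271 TPM in K382Q. Both were under the filter and were not tested, and their groups overlapped. Ifitm10 also overlaps Gm49369 on the same strand, which was listed at 0 in 4 of the 6 libraries but at 8.83 TPM in K382Q replicate 3 and 5.83 TPM in K382R replicate 1, above Ifitm10 itself. How reads were divided between this pair is uncertain.

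Bst2 encodes tetherin and lies on chromosome 8 at chr8:71986899-71990100. It stood at 456, 484 and 447 TPM in K382R and at 205, 246 and 227 TPM in K382Q. The groups were separate, and the log2 fold change was −1.03 (SE 0.0642, adjusted p = 1.28e-05 in limma). This lies close to the 2-fold line and was inside it in 5 of 17 alternatives: it was −0.97 without K382Q replicate 1, −0.9999 without K382R replicate 2, −0.95 with FPKM, −0.95 with quantile normalization and −0.88 after median-ratio scaling, all with adjusted p from 1.56e-05 to 1.11e-04.

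Rsad2 encodes viperin and lies on chromosome 12 at chr12:26492745-26506451. It stood at 37.7, 40.5 and 36.3 TPM in K382R and at 16.8, 16.9 and 15.5 TPM in K382Q. The log2 fold change was −1.19 (SE 0.059, adjusted p = 4.28e-06 in limma), and it stayed beyond 2-fold at −1.04 after median-ratio scaling.

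The order of levels changed little between the mutants. In K382Q it ran Ifitm3, Ifitm2, Bst2, Ifit1, Rsad2, Ifit3, Ifit2 and Ifit3b, and each neighbouring pair was separate over the 3 libraries. In K382R, Bst2 stood above Ifitm2, while Ifit3 overlapped Rsad2 and Ifit2 overlapped Ifit3b. Ifitm10 and Ifitm1 were last and overlapped in both groups. The summed IFITM level was 13.5 ± 0.403 times the summed IFIT level in K382Q and 6.02 ± 0.440 times in K382R (SD, n = 3 each). The log2 ratio of Ifit1 to Ifitm3 was −3.64 ± 0.0638 in K382Q and −2.82 ± 0.0686 in K382R (SD, n = 3 each), a difference of −0.82 with a two-sided exact permutation p of 0.1, the smallest possible, and 0.133 after adjustment over the 4 ratios.

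**Figure D3:**
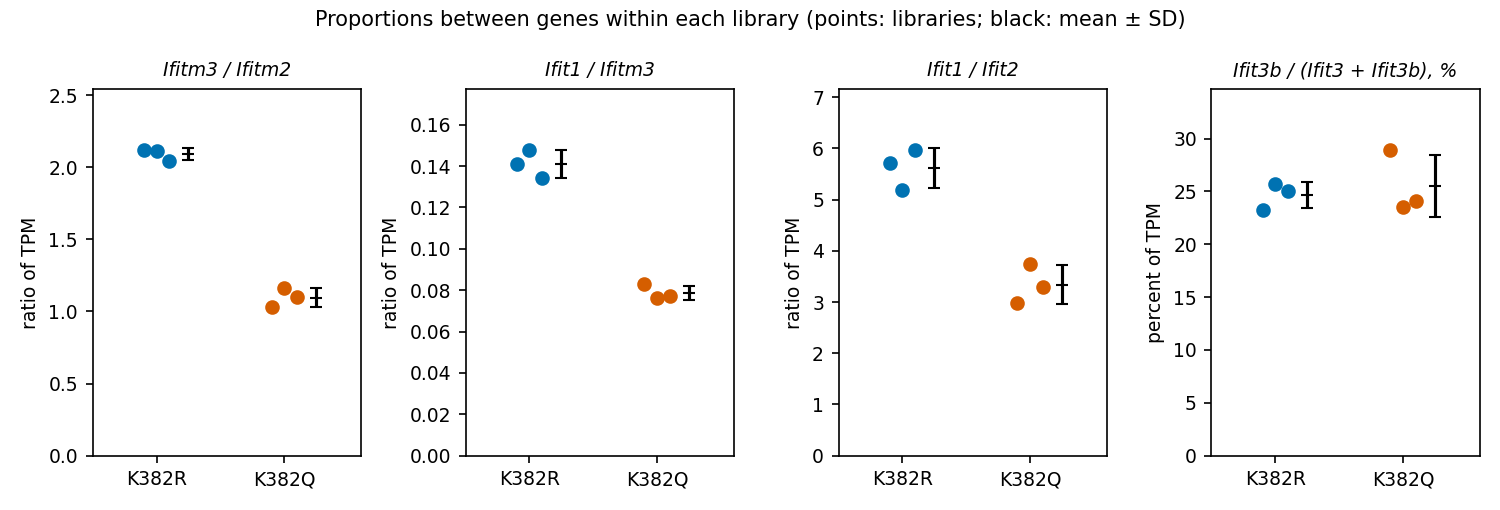
Proportions between genes in each library: the TPM ratios of Ifitm3 to Ifitm2, Ifit1 to Ifitm3 and Ifit1 to Ifit2, and the percentage of Ifit3b in the pair Ifit3 and Ifit3b, with points for libraries and black marks for mean ± SD (n = 3). The first 3 proportions are separate between K382R and K382Q, and the Ifit3b share, near 25%, overlaps.

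Both families have other copies that were not among the 10 genes. Ifit1bl1 and Ifit1bl2, Ifit1-like copies within the IFIT row, were scarce, at 0.601 ± 0.0611 and 1.65 ± 0.138 TPM in K382R against 0.227 ± 0.0398 and 0.678 ± 0.1002 TPM in K382Q (SD, n = 3 each). Both were lower in K382Q, with log2 fold changes of −0.60 (adjusted p = 0.0321 in limma) and −0.87 (adjusted p = 0.00235), although Ifit1bl1 missed the threshold after median-ratio scaling (adjusted p = 0.0548). Ifit1bl1 reached 0.5 TPM only in the K382R libraries. It thus entered the test through the group where it was higher, and its p-value is no support for a difference. Ifit1bl2 and Ifit1 start 127 bases apart, head to head, so the Ifit1 stretch printed above lies between their starts. Ifitm5, a bone-linked member, passed the filter only through the K382Q libraries. Its log2 fold change of 0.70 did not pass the test (adjusted p = 0.0759 in limma). Ifitm6 was under the filter and Ifitm7 was listed at 0 in all 6 libraries.

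Genes beside the 10 did not move as a block. Of 30 other tested genes within 100 kb, 13 were lower in K382Q (36.9% of all genes tested), 6 were higher (11.1% of all genes tested) and 11 did not pass the test. After median-ratio scaling 9 were lower and 8 higher, against 20.4% and 19.9% of all genes tested. Lipa, the lysosomal lipase gene at the edge of the IFIT row, was higher (log2 fold change 0.38, adjusted p = 1.75e-05 in limma). Cmpk2, a nucleotide kinase gene beside Rsad2 that is itself interferon-induced, was lower (−1.25, adjusted p = 1.37e-05). Slc27a1, a fatty acid transporter gene 31426 bases from Bst2, was higher (2.09, adjusted p = 2.51e-07), which is opposite in direction to Bst2. The other neighbours past 2-fold were Unc13a, a synaptic vesicle priming gene near Bst2 (1.27, adjusted p = 2.78e-04), and Lsp1, a leukocyte cytoskeletal gene near Ifitm10 (−1.26, adjusted p = 3.14e-05).

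**Figure D4:**
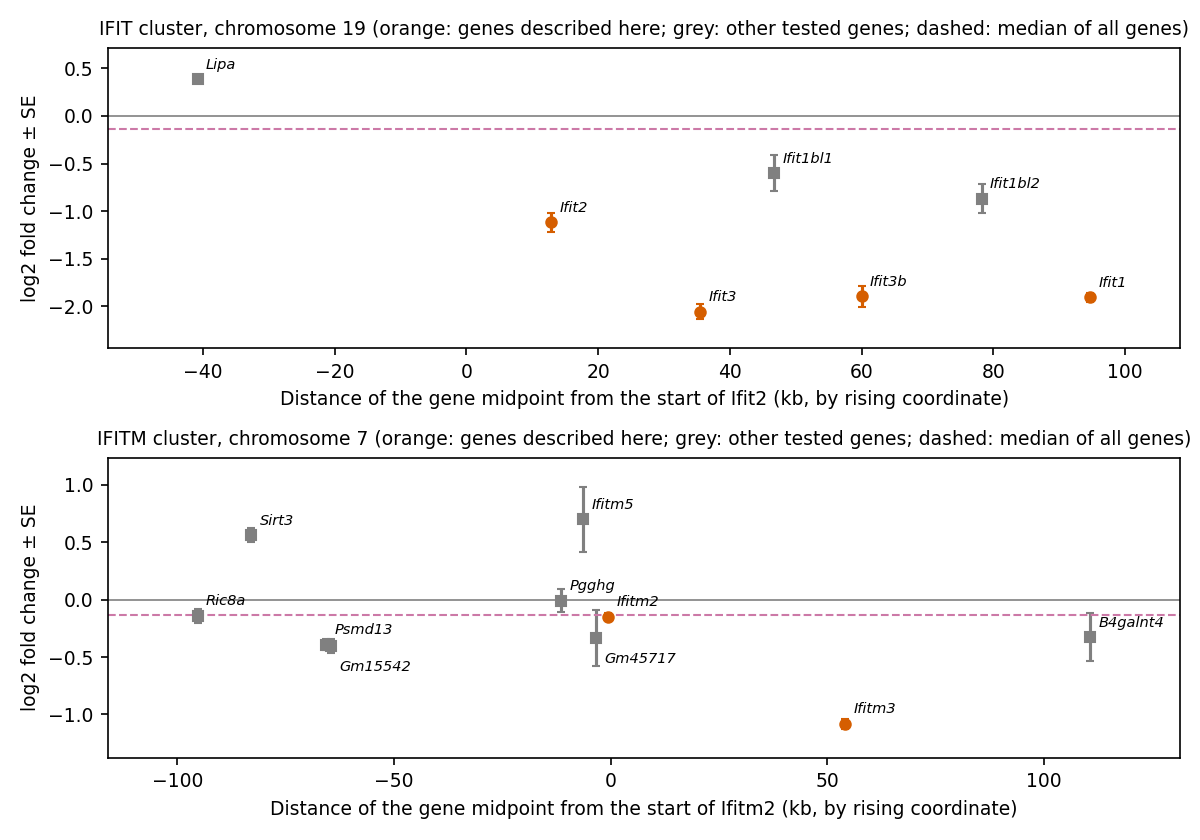
Log2 fold change ± SE of each tested gene around the IFIT row (upper panel) and the IFITM genes (lower panel) against distance in kb from the start of Ifit2 or Ifitm2. All 4 IFIT genes lie at −1.12 or lower while Lipa lies at 0.38, and Ifitm3 at −1.08 stands apart from Ifitm2 at −0.15 and from the other genes nearby.

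Genes of the interferon pathway were followed from ligand to target. Whether signalling through this pathway set the levels of the antiviral genes above in these cells was not tested. The counts of lower and higher genes in the lists that follow stand against 36.9% lower and 11.1% higher among all genes tested, or 20.4% and 19.9% after median-ratio scaling. None of 8 interferon ligand genes passed the filter, and all stayed under 0.5 TPM in every library. Ifnk, Ifng, Ifnl2 and Ifnl3 were listed at 0 throughout, and Ifnb1, the interferon beta gene, was listed at 0 in the 3 K382Q libraries and at 0.0840, 0.117 and 0.141 TPM in the K382R libraries. Ifna2, Ifna4 and Ifne were above 0 in some libraries, and their groups overlapped. All these levels are near the floor and were not tested. Of 8 tested receptor and kinase genes, 7 were lower and none higher, by small amounts (median log2 fold change −0.29). Ifnar1, a chain of the type I interferon receptor, changed by −0.40 (adjusted p = 2.07e-04 in limma). After median-ratio scaling 4 of the 8 were lower by the test and the median was −0.14.

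Among 7 tested transcription factors, 6 were lower and none higher, with a median log2 fold change of −0.56. After median-ratio scaling 5 were lower and the median was −0.41, and Irf1, an activator of interferon-stimulated genes, moved from −0.13 (adjusted p = 0.0118 in limma) to 0.021 (adjusted p = 0.673). Irf7, the factor that amplifies interferon output, showed the largest change at −1.94 (adjusted p = 6.92e-07 in limma), close to that of Ifit1. Stat2 and Irf9, components of the ISRE-binding complex, changed by −0.87 and −0.56. Irf3, another factor of the list, did not pass the test (−0.10, adjusted p = 0.198 in limma). Of 6 feedback inhibitor genes, 4 were lower, among them Usp18, which blocks the receptor (−1.56, adjusted p = 1.86e-06), and Isg15 (−1.29, adjusted p = 3.69e-06), and the phosphatase genes Ptpn2 and Ptpn6 did not pass the test. Ptpn6 passed it after median-ratio scaling, as higher (0.44, adjusted p = 0.0468).

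Most other interferon-induced antiviral effectors were lower in K382Q too. Of 27 tested, 25 were lower, 14 of them over 2-fold (2.61% of all genes tested), 1 was higher and 1, Mx1, did not pass the test, and the median log2 fold change was −1.02 (−0.87 after median-ratio scaling, with 25 lower and 1 higher). Oasl1, which restrains Irf7 translation, was lowest at −1.92 (adjusted p = 1.29e-06 in limma). Isg20, an exonuclease that degrades viral RNA, was the exception and was higher, at 73.0 ± 6.05 TPM in K382Q against 37.7 ± 2.58 TPM in K382R (SD, n = 3 each, log2 fold change 0.94, adjusted p = 3.29e-05). Mx1 passed the filter only through the K382R libraries. Isg15 is counted in this list as well as among the feedback inhibitors.

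Genes for the methylation of RNA caps, and genes of proteins known to bind or modify IFITM3 or to bind viperin, were looked at separately. Of 4 genes for the methylation of RNA caps, 3 were lower with a median of −0.32, and Cmtr1 had the lowest value at −0.56 (adjusted p = 3.20e-05 in limma). Of 5 genes whose products bind or modify IFITM3, 4 were lower (median −0.36), led by Setd7, a lysine methyltransferase that acts on IFITM3, at −0.88 (adjusted p = 6.21e-06). After median-ratio scaling 2 of the 4 genes for cap methylation were lower (median −0.18) and 3 of the 5 genes of IFITM3 partners (median −0.21). Of 6 genes whose products bind viperin, 2 were higher, 1 was lower and 3 did not pass the test. Hadhb, the mitochondrial trifunctional protein subunit that viperin binds, was higher at 0.57 (adjusted p = 4.64e-06), as was Fdps, an isoprenoid synthase, at 0.33 (adjusted p = 9.58e-05), so these moved opposite to Rsad2 itself. The split depended on the scaling: with median-ratio scaling none of the 6 was lower and 3 were higher, since Ciao2a, an iron-sulfur assembly gene, moved from −0.16 (adjusted p = 0.0116 in limma) to −0.0046 (adjusted p = 0.940) and Traf6, a signalling ubiquitin ligase gene, passed the test at 0.27 (adjusted p = 0.0147).

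**Figure D5:**
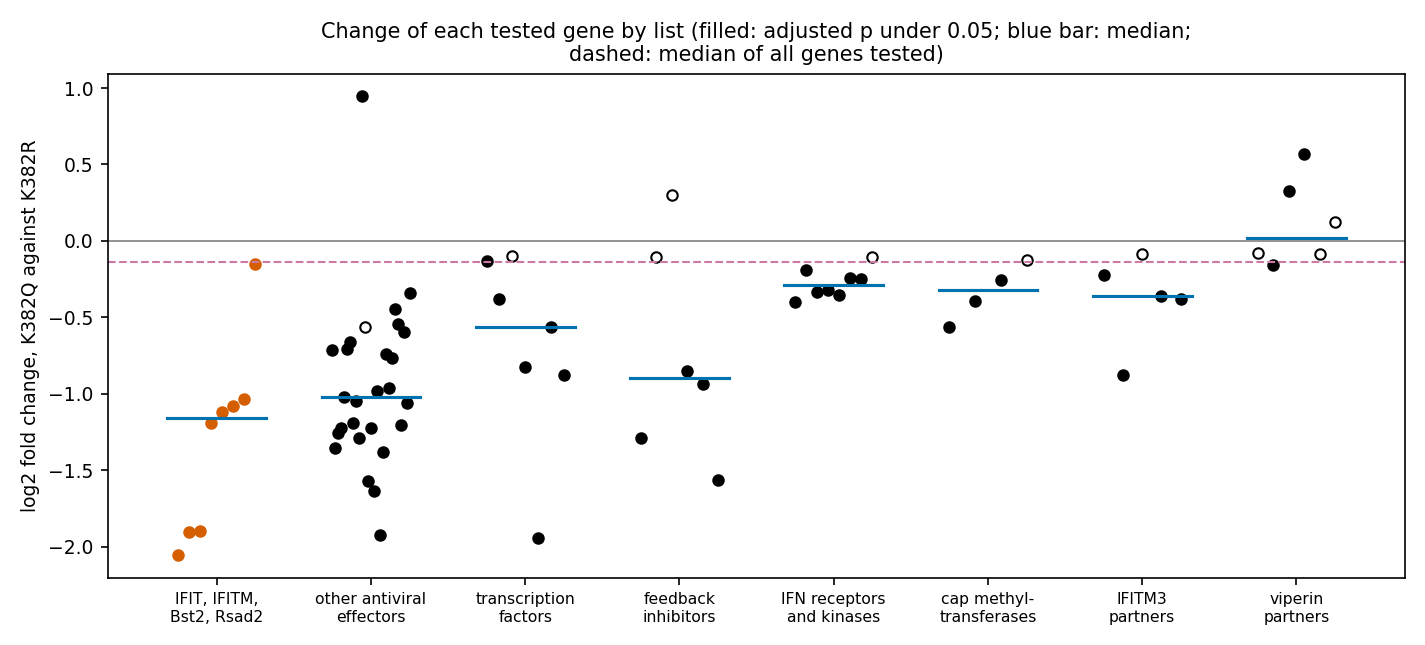
Log2 fold change of each tested gene, K382Q against K382R, by list, with filled points for an adjusted p under 0.05, a blue bar at the list's median and a dashed line at the median of all genes tested. The median is −1.16 for the 8 genes and −1.02 for the other antiviral effectors, −0.29 for receptors and kinases and near 0 for viperin partners.

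Markers of cell type moved with these genes in part. All 6 tested of 7 adipocyte progenitor and fibroblast markers were lower in K382Q (median log2 fold change −0.82). The 7 summed to 570 to 615 TPM in K382Q and 940 to 978 TPM in K382R, and none was at 0. Most of that sum is Ly6a, at 467 ± 26.9 TPM in K382Q and 767 ± 17.6 TPM in K382R (SD, n = 3 each). Of 8 adipocyte markers, 4 were lower and 3 higher, with a summed level of 54566 to 58217 TPM in K382Q and 45490 to 46701 TPM in K382R. The sum is mostly Fabp4, the fatty acid binding protein gene. Without it the other 7 markers summed to 7925 to 8172 TPM in K382Q and 8046 to 8160 TPM in K382R. These 7 include Pparg with its introduced transcripts, at 1333, 1164 and 1104 TPM in K382Q and 1590, 1632 and 1612 TPM in K382R. The likeness of the 2 sums therefore rests in part on the overexpressed gene and does not show equal endogenous markers. Within these 7 the markers went both ways: Adipoq, the adiponectin gene, was lower (log2 fold change −1.28, adjusted p = 7.63e-07 in limma), as was Cebpa, an adipogenic transcription factor gene (−0.81), while Cd36 and Cidec, genes of fatty acid uptake and of the lipid droplet, were higher (0.43 and 0.27). After median-ratio scaling 3 of the 8 were lower and 4 higher. The 9 leukocyte markers were all under 0.5 TPM in every library, and Cd3e, Ms4a1, Adgre1, Ncr1 and Siglech were listed at 0. Of 5 endothelial markers 1 was tested and of 5 pericyte markers 2, and none of these passed the test, although Cspg4, a pericyte marker, passed as higher after median-ratio scaling (0.57, adjusted p = 0.0423 in limma). Emcn was listed at 0. Pparg, whose introduced and endogenous transcripts are not separated in the tables, stood at 1200 ± 119 TPM in K382Q and 1611 ± 21.1 TPM in K382R (SD, n = 3 each, log2 fold change −0.43, adjusted p = 9.77e-04 in limma). The part of the progenitor markers and of the Pparg level in these results was not tested.

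As a description of likeness, log2 levels over the 6 libraries were correlated with those of 10643 genes. For Ifit1 the closest were Apol9a, Ddx23, Igtp, Plec and Tsr1, with Pearson's r from 0.9994 to 0.9997, and for Ifitm3 they were Map7d1, Col18a1, Apol9b, Eif3d and Zfp385a. The 6 libraries form 2 separate groups, and any gene that differed between the mutants can reach a high r: 710 genes exceeded an r of 0.99 with Ifit1 and 584 with Ifitm3.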

How the data were processed

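Per the labels and the study's methods, the authors aligned 150-base paired reads to GRCm39 with HISAT2 and quantified genes with StringTie. The annotation release is not given in the sources used here, and the library kit as named does not mark strand. The deposited tables give TPM, FPKM and coverage per gene for each library. TPM values were analysed, FPKM values as deposited by the authors served as an alternative, and coverage, the authors' mean reads per base, gave the depth. Aligned bases estimated from the coverage ranged from 5.952 to 8.154 Gb per library, and Ifit3b, the tested member with the lowest coverage, had 7.28 to 48.7 reads per base. Counting intervals were not computed, since read counts are not in these tables.

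Rows that shared a gene identifier were summed. Genes with at least 0.5 TPM in at least 3 libraries were fitted on log2(TPM + 0.5) with limma 3.58.1 (R 4.3.3, intensity trend), K382Q against K382R, with Benjamini-Hochberg adjustment over all 15426 genes. A fold change on this scale understates the change of low genes. Calls over 2-fold used a log2 change beyond 1. Ratios of genes were tested by exact permutation. The procedure was tested on simulated data. The changes put in were few and all beyond 2-fold, so the simulation did not cover genes near that line or a broad shift between groups. Named were the 10 members, genes of the lists (in lists over 10 genes the largest and smallest change, and any single exception), those past 2-fold or at the edge of the IFIT row among tested genes within 100 kb of a member, and the 5 genes most like Ifit1 and Ifitm3 (mean TPM of at least 5). The members and lists were chosen with earlier results of these data known. Promoters were read from GRCm39 by the tables' coordinates, and RefSeq windows (GRCm38.p6) matched all 10 members by symbol. In 2 of the lists 1 gene is not reported here and is not in the counts.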

Additional observations from a re-analysis of the deposited data

How the results depend on the processing

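Over 17 alternatives (pseudocounts, filters, scalings, weights, and leaving out each library), Ifit1, Ifit2, Ifit3, Ifitm3, Bst2 and Rsad2 kept their direction and an adjusted p under 0.05 in limma, as did Ifit3b over 16. Of the 10 genes, 4 passed 2-fold with FPKM, 4 with median-ratio scaling and 5 with quantile normalization, against 7. Among all genes tested, 226 of 13419 passed 2-fold as lower with FPKM and 297 of 15426 with median-ratio scaling. With quantile normalization it was 306 of 15426, against 403 of 15426 in the main fit. The median log2 fold change of the tested members was −1.10 with no filter on low values, −1.04 with FPKM, −1.01 with median-ratio scaling and −1.05 with quantile normalization. Ifitm2 changed to 0.0028 under median-ratio scaling, −0.066 with FPKM (adjusted p = 0.112) and −0.073 with quantile normalization (adjusted p = 0.0953). Over all genes, 599 were called (403 lower, 196 higher), 377 with FPKM, 1864 with a fold over 1.5, and 297 lower and 287 higher with median-ratio scaling. The filter and pseudocount applied to FPKM left 13419 genes tested in place of 15426, so that setting changed the genes as well as the scale. The cause of the shifts was not tested. Leaving out each library gave 562 to 616 calls over all genes, 6 to 7 among the members, a median of −1.21 to −1.11 and a difference in the Ifit1 to Ifitm3 log2 ratio of −0.86 to −0.79.

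Replicate numbers did not pair the libraries, since deviations of same-numbered libraries correlated at −0.018, 0.051 and 0.022. A replicate block gave 604 calls over all genes and 7 among the members. The windows for the ISRE core other than the tables' starts were chosen after seeing the data.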
